A study of Mus musculus with 12 samples.

Results

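The troponin genes are described here across all 4 groups of a series on mouse cardiac fibroblasts. The members were chosen by symbol: Tnnt1, Tnnt2, Tnnt3, Tnni1, Tnni2, Tnni3, Tnnc1 and Tnnc2, which are 8 of the 24619 genes in the deposited counts table. Tnnt2 was singled out because its level was already known to be high and to differ between the groups, so its values are a description and carry no test. The question put to the other 7 genes was whether Tnnt2 moved alone or with its subunits and with Tnni1, the troponin gene next to it on chromosome 1.

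Messenger RNA was sequenced from primary mouse fibroblasts of the heart, in 12 libraries that form 4 groups of 3. All groups were grown with 10% serum, starved for 12 h and then kept for 24 h in medium in which adipocytes had been grown, so that it held what those cells had released. In OE_CM the adipocytes carried a lentivirus that overexpresses the human microRNA miR-548ay. TGF_KD_CM received TGF-beta1, a cytokine known to turn fibroblasts into myofibroblasts, along with medium from adipocytes whose lentivirus inhibits miR-548ay. TGF_VEC_CM combined TGF-beta1 with medium from adipocytes carrying the empty vector. VEC_CM received medium from vector adipocytes and no TGF-beta1. Sample titles decided the groups: in OE_CM and in TGF_KD_CM, the treatment given for replicate 2 mentions miR-549ay and that for replicate 3 mentions miR-550ay. The labels place OE_CM and VEC_CM in one part of the study and both TGF-beta1 groups in another, without saying whether the parts were run together. They do not say that the libraries of a group came from separate cultures. P-values therefore weigh a difference only against the spread between these libraries, and that spread may be technical only.

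Troponin is the calcium switch of striated muscle and sits on the thin filament with tropomyosin and actin. Troponin T binds tropomyosin, troponin I inhibits the actin-myosin interaction, and troponin C binds calcium and relieves that inhibition. Troponin T and I have separate cardiac, slow skeletal and fast skeletal genes, heart and slow muscle share a troponin C, and in vertebrates a troponin I gene and a troponin T gene commonly lie side by side. In the heart the adult complex is made of the products of Tnnt2, Tnni3 and Tnnc1, and Tnnt2 is widely used as a cardiomyocyte marker.

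The promoters of the members that differ most between the groups are shown first, because later results set Tnnt2 against its neighbour Tnni1 and against Tnnc2. RefSeq windows of GRCm38.p6 were used, from 250 bases before to 50 bases after an annotated start, and 6 of the 8 members had an entry. Tnnt3 and Tnni2 had none. Capitals mark matches to 3 motifs on either strand, namely the M-CAT letters CATTCC bound by TEAD factors, the GATA letters AGATAA and the SMAD letters CAGAC. Each sequence is printed 5′ to 3′ on the strand of its gene.
Tnnt2, chr1:135836084-135836383, plus strand: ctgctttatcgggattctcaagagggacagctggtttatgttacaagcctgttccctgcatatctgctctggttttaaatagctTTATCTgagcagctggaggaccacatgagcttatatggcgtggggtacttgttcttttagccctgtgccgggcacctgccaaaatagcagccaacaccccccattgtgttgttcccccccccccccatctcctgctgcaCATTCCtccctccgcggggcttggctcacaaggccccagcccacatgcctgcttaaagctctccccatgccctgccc
Tnni1, chr1:135799171-135799470, plus strand: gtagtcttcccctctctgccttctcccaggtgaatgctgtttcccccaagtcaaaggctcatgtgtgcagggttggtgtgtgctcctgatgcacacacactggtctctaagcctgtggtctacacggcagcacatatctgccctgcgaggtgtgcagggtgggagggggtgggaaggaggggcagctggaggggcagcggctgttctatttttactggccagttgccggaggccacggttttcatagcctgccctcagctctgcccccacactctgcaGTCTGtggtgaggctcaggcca
Tnnc2, chr2:164779685-164779984, minus strand: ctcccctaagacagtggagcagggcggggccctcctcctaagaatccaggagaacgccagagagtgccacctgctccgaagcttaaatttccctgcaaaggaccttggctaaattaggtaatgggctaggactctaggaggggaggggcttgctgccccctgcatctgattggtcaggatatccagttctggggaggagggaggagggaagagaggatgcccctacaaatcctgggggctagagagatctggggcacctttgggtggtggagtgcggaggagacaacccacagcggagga
The Tnnt2 window above held an M-CAT match that begins 27 bases before the start, and a GATA match on the opposite strand, TTATCT, that begins 166 bases before it. The window of a second annotated Tnnt2 start, chr1:135836739-135837038, is not printed and held no match to these motifs. The Tnni1 window above surrounds a start that lies inside the longest annotated span of the gene, and it had a SMAD match on the opposite strand, GTCTG, beyond that start. The window of a second annotated Tnni1 start, also not printed, held SMAD matches too. No capital stands in the Tnnc2 window, which says only that these letters are not there. Among all 32851 promoter windows of the table, 14.7% held the M-CAT letters, 11.2% the GATA letters and 49.6% the SMAD letters. Over all windows of the members with an entry, M-CAT was found in 2 genes (Tnnt2 and Tnnc1), GATA in 1 (Tnnt2) and SMAD in 3 (Tnni1, Tnnt1 and Tnnc1). The AP-1 letters TGANTCA, the MEF2 motif and the CArG box were found in none of the members' windows, against 7.81%, 3.19% and 1.63% of all windows. The RUNX letters TGTGGT were found in Tnnt2 and Tnni1 and in 16.8% of all windows, and in the Tnni1 window above 1 of its 2 matches overlaps the SMAD match by 2 bases. These matches describe letters and do not show that a factor binds there.

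Libraries held 33379207 to 37226153 counts, and levels are given as CPM, counts scaled to library size with TMM factors. A count of 3 stood for at most 0.0939 CPM in any library. The fibroblast label was checked against markers: Col1a1, Col1a2, Fn1, Ddr2 and Pdgfra were well expressed, and the summed level of the 15 fibroblast markers ran from 13391 to 15878 CPM over the 12 libraries. Dcn, Lum and Thy1, which also mark fibroblasts, averaged 0.13, 0.01 and 0.32 CPM. Cardiomyocyte markers other than troponins were scarce: 14 of the 17 in the table averaged less than 1 CPM. Actc1, Myl2 and Mybpc3, which encode sarcomere proteins of heart muscle, had at most 1 count in any library, and Myh6 at most 5. The summed level of those 17 genes was 4.96 to 5.98 CPM in OE_CM, 7.03 to 7.78 CPM in TGF_KD_CM, 8.44 to 9.15 CPM in TGF_VEC_CM and 7.65 to 9.34 CPM in VEC_CM. OE_CM, the group in which Tnnt2 was highest, thus had the lowest sum of these markers. Most of its difference from VEC_CM came from Casq2 alone, described below, so the sum does not speak for the markers as a set. In RNA from whole cultures, fewer cells of a kind and less RNA per cell cannot be told apart.

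Tnnt2 stood far above every other troponin gene in all 12 libraries. Per kilobase of transcript (FPKM, the deposited length-scaled unit), it averaged 108.7 ± 2.05 in OE_CM, 70.2 ± 2.00 in TGF_KD_CM, 79.3 ± 4.54 in TGF_VEC_CM and 50.7 ± 2.23 in VEC_CM (SD, n = 3 each). Among all 24619 genes its FPKM ranked 596 to 621 in OE_CM, 965 to 1008 in TGF_KD_CM, 814 to 921 in TGF_VEC_CM and 1335 to 1468 in VEC_CM. It made up 88.4% ± 0.594 of the summed troponin FPKM in OE_CM, 80.5% ± 1.11 in TGF_KD_CM, 82.0% ± 0.564 in TGF_VEC_CM and 76.4% ± 2.19 in VEC_CM. The next gene in every group was Tnni2, the fast skeletal troponin I, with group means between 9.90 and 10.4 FPKM and no overlap with Tnnt2. Tnnt1, the slow skeletal troponin T, followed at 2.38 to 3.31 FPKM. Tnnc2, the fast skeletal troponin C, reached 3.27 ± 0.646 FPKM in TGF_VEC_CM, above Tnnt1 in every library of that group, and its range overlapped that of Tnnt1 in TGF_KD_CM.

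The other 4 genes lay below 1 FPKM in every group mean. Tnnt3, the fast skeletal troponin T, averaged 0.34 to 0.831 FPKM, and Tnnc1, the troponin C of heart and slow muscle, averaged 0.158 to 0.547 FPKM. Their ranges overlapped in TGF_KD_CM and VEC_CM. Tnni1, the slow skeletal troponin I that the fetal heart also uses, averaged 0.56 ± 0.0732 FPKM in TGF_VEC_CM and 0.144 FPKM or less in the other groups. Tnni3, the adult cardiac troponin I, had 1 count in OE_CM, none in TGF_KD_CM and TGF_VEC_CM, and 1 count in VEC_CM, so it could not be tested. The usual cardiac partners of Tnnt2 were therefore at or near the floor in cells where Tnnt2 itself had between 2500 and 5719 counts per library.

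**Figure D1:**
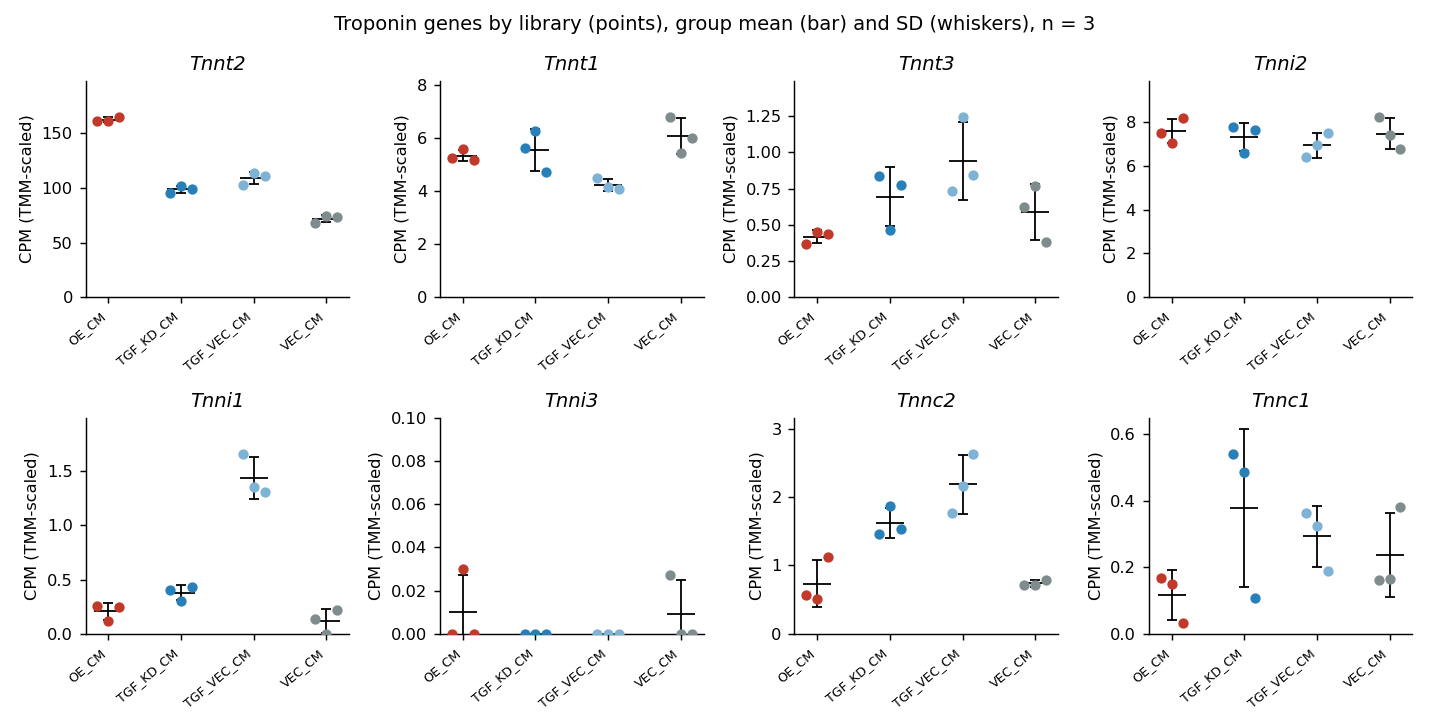
TMM-scaled CPM of the 8 troponin genes in each of the 12 libraries (points), with the mean (bar) and SD (whiskers) of each group of 3, on a separate linear axis for each gene. Tnnt2 is highest in OE_CM (162 CPM) and lowest in VEC_CM (71.9 CPM). Its TGF-beta1 groups nearly touch, at 102.2 CPM in the highest TGF_KD_CM library and 102.6 CPM in the lowest TGF_VEC_CM library. Tnni1 is highest in TGF_VEC_CM, and Tnnc2 is higher in both TGF-beta1 groups than in the others.

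The first question was what medium from miR-548ay adipocytes does to the fibroblasts, relative to vector medium. Tnnt2 had 161, 161 and 165 CPM in OE_CM, against 68.0, 74.1 and 73.4 CPM in VEC_CM. The lowest OE_CM library lay above the highest VEC_CM library by a wide margin, and the groups did not overlap. The difference was 1.18 ± 0.036 on the log2 scale (SE, edgeR), which is 2.26-fold, and 299 of the 14400 genes tested rose by more. Of the 6 other members that could be tested, 0 passed an edgeR adjusted p of 0.05, while 54% of all genes did (28.4% higher and 25.7% lower), and none reached an unadjusted p below 0.05. DESeq2 also called 0 of the 6. Of all calls 52.5% were higher, a split that became 35.6% with upper-quartile factors, under which Tnnt2 differed by 1.09. Tnnt2 was the only member of the 7 tested whose groups did not overlap, against 58.2% of all tested genes.

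The intervals of the other members are set beside the Tnnt2 value as a description, and they carry only the spread between these libraries. Tnni2 had 7.50, 7.05 and 8.17 CPM in OE_CM, against 8.22, 7.40 and 6.78 CPM in VEC_CM. Its log2 difference was 0.02, with a 95% interval of -0.21 to 0.25 (edgeR adjusted p = 0.90), and the sign turned to -0.07 with upper-quartile factors. Tnnt1 had 5.25, 5.59 and 5.19 CPM in OE_CM, against 6.80, 5.43 and 6.02 CPM in VEC_CM, a log2 difference of -0.19 (-0.46 to 0.08, edgeR adjusted p = 0.242). Both intervals end below the 1.18 of Tnnt2, which was singled out for its difference, so this is no test against it. Tnnc2 differed by -0.02 (-0.67 to 0.63, edgeR adjusted p = 0.968), and Tnnt3 by -0.50 (-1.32 to 0.32, edgeR adjusted p = 0.315). Tnnc1, with 1 to 6 counts per library in OE_CM and 6 to 14 in VEC_CM, differed by -0.98 (-2.31 to 0.36, edgeR adjusted p = 0.219). Their intervals likewise end below 1.18, though Tnnc1 had no group whose libraries all passed the filter on low counts.

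Tnni1 is the exception among these intervals. It had 9, 4 and 8 counts in OE_CM, against 5, 0 and 8 counts in VEC_CM. The groups overlapped, and the log2 difference of 0.80 (-0.46 to 2.06, edgeR adjusted p = 0.295) did not pass the test, but its interval includes the Tnnt2 value. At counts this low, a change of Tnni1 as large as that of Tnnt2 was not detectable.

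Inhibition of the microRNA in the adipocytes was compared with vector medium in the presence of TGF-beta1. Tnnt2 had 95.5, 102 and 98.7 CPM in TGF_KD_CM, against 103, 114 and 111 CPM in TGF_VEC_CM. The groups lay side by side without overlap, TGF_KD_CM being lower. The log2 difference was -0.14 ± 0.036 (SE, edgeR), or 0.905-fold, and 4200 genes had a more negative value. Among the other members 2 of 6 passed the test, 1 in each direction, where 43.3% of all genes passed (23% higher and 20.2% lower). The groups of those 2 genes and of Tnnt2 did not overlap, as was so for 50.9% of all tested genes.

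Tnni1 fell and Tnnt1 rose. Tnni1 had 0.406, 0.298 and 0.429 CPM in TGF_KD_CM, against 1.66, 1.35 and 1.30 CPM in TGF_VEC_CM, which rest on 11 to 16 counts and on 48 to 59 counts. All TGF_KD_CM libraries were below all TGF_VEC_CM libraries, and the level was 3.77 times lower (log2 -1.92 ± 0.41, SE, edgeR adjusted p = 8.15e-05). With any 1 of the 12 libraries left out the log2 value stayed between -2.03 and -1.79, and on the log2(FPKM + 1) scale, which compresses low genes, it was -0.45. Tnnt1 moved the other way, with 5.64, 6.29 and 4.72 CPM in TGF_KD_CM, against 4.49, 4.17 and 4.07 CPM in TGF_VEC_CM. Its groups were close but did not overlap, and the log2 difference was 0.39 ± 0.14 (SE, edgeR adjusted p = 0.0176). That call was lost when 1 library was left out in 4 cases: without TGF_KD_CM replicate 1 the value was 0.36 (edgeR adjusted p = 0.0515), without TGF_KD_CM replicate 2 it was 0.27 (0.154), without TGF_VEC_CM replicate 2 it was 0.36 (0.0568), and without TGF_VEC_CM replicate 3 it was 0.34 (0.0685).

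The remaining 4 tested members did not pass. Tnnc2 had 1.46, 1.87 and 1.53 CPM in TGF_KD_CM, against 1.77, 2.16 and 2.63 CPM in TGF_VEC_CM (log2 -0.43, -0.96 to 0.10, edgeR adjusted p = 0.19). Tnnt3 differed by -0.44 (edgeR adjusted p = 0.35), Tnnc1 by 0.37 (0.61) and Tnni2 by 0.08 (0.604). The groups overlapped for each of these genes.

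TGF-beta1 with vector medium was compared with vector medium alone. This comparison crosses the parts of the study, so TGF-beta1 and the part cannot be told apart, and it shares VEC_CM with the overexpression comparison and TGF_VEC_CM with the inhibition comparison. Tnnt2 had 103, 114 and 111 CPM in TGF_VEC_CM, against 68.0, 74.1 and 73.4 CPM in VEC_CM. No library of one group reached the range of the other, and the log2 difference was 0.60 ± 0.037 (SE, edgeR), or 1.52-fold, with 1956 genes rising by more. Tnni1 entered the test only through the TGF-beta1 groups, where it is high, so it is described without a test. Of the 5 other members 2 passed, 1 higher and 1 lower, where 58.3% of all genes passed (28.9% higher and 29.4% lower). The groups of these 2 genes and of Tnnt2 did not overlap, as for 62.8% of all tested genes.

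Tnnc2 was the member that rose and Tnnt1 the one that fell, and Tnni1 had the largest log2 difference of the members. Tnni1 had 59, 50 and 48 counts in TGF_VEC_CM, against 5, 0 and 8 counts in VEC_CM. In CPM this was 1.44 ± 0.192 in TGF_VEC_CM and 0.118 ± 0.11 in VEC_CM (SD, n = 3 each), an 11.8-fold difference (log2 3.56 ± 0.49, SE, edgeR). The size depends on the near-empty vector libraries: the log2 value was 2.99 without VEC_CM replicate 2 and 4.34 without VEC_CM replicate 3, and 0.58 on the log2(FPKM + 1) scale. Tnnc2 had 1.77, 2.16 and 2.63 CPM in TGF_VEC_CM, against 0.708, 0.71 and 0.793 CPM in VEC_CM. The groups were well apart, with a 2.96-fold difference (log2 1.57 ± 0.29, SE, edgeR adjusted p = 3.95e-06). Tnnt1 had 4.49, 4.17 and 4.07 CPM in TGF_VEC_CM, against 6.80, 5.43 and 6.02 CPM in VEC_CM, and was lower in every TGF_VEC_CM library (log2 -0.52 ± 0.14, SE, edgeR adjusted p = 0.000797).

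Tnnt3 averaged 0.938 ± 0.27 CPM in TGF_VEC_CM and 0.591 ± 0.193 CPM in VEC_CM (SD, n = 3 each), with overlapping libraries (log2 0.67 ± 0.37, SE, edgeR adjusted p = 0.119). On log2(FPKM + 1) values limma gave an adjusted p of 0.0419 for that gene. Tnni2 differed by -0.11 (edgeR adjusted p = 0.431) and Tnnc1 by 0.30 (0.667), again with overlapping groups.

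More genes were seen in the TGF-beta1 groups, where Tnni1 was higher, and the part of this in the Tnni1 result was not tested. The genes that had any count numbered 18212 to 18398 in OE_CM, 19333 to 19406 in TGF_KD_CM, 19810 to 19972 in TGF_VEC_CM and 18671 to 18815 in VEC_CM. Tnni1 averaged 0.535 CPM over the 12 libraries and passed the filter on low counts through the TGF-beta1 groups alone. Among the 2406 tested genes that averaged less than 1 CPM, 26.7% were higher and 4.99% lower in TGF_VEC_CM than in VEC_CM. In TGF_KD_CM 3.28% of them were higher and 11.9% lower than in TGF_VEC_CM, with a median log2 difference of -0.24. The median over those genes for TGF_VEC_CM over VEC_CM was 0.38. For Tnni1 the value with inhibition was -1.92, and 68 of all genes tested had a more negative one. Tnnc1 had no group in which all 3 libraries passed the filter.

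**Figure D2:**
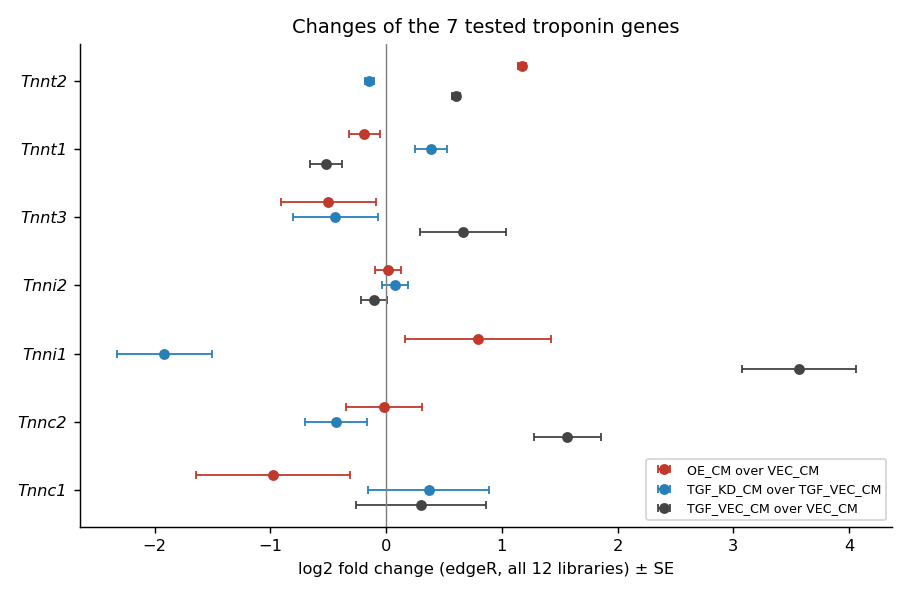
Log2 fold changes (points) with SE (bars) of the 7 tested troponin genes in 3 comparisons, from 1 edgeR fit to all 12 libraries; red, OE_CM over VEC_CM; blue, TGF_KD_CM over TGF_VEC_CM; black, TGF_VEC_CM over VEC_CM. Of the red values, that of Tnnt2 is highest, at 1.18. In blue, Tnni1 lies at -1.92 and Tnnt1 at 0.39, on opposite sides of 0, and in black Tnni1 reaches 3.56.

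The effect of overexpression was then set against the effect of inhibition, as the difference of their log2 fold changes. For Tnnt2 that difference was 1.32 ± 0.051 (SE, edgeR). Tnni1 was kept by the filter through the TGF-beta1 groups alone, so its difference is given without a test. Of the remaining members only Tnnt1 passed, and it was lower, where 52.5% of all genes passed (25.6% higher and 26.8% lower). Tnnt1 differed by -0.57 ± 0.19 (SE, edgeR adjusted p = 0.00903), with -0.19 under overexpression and 0.39 under inhibition. Tnni1 differed by 2.71 ± 0.76 (SE, edgeR), and by 2.14 without VEC_CM replicate 2 and 3.50 without VEC_CM replicate 3. Tnni2 (-0.06), Tnnt3 (-0.06), Tnnc1 (-1.34) and Tnnc2 (0.42) did not pass.

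Summed by subunit, only troponin T followed Tnnt2, since Tnnt2 is most of it. Troponin T genes together averaged 111.8 ± 2.00 FPKM in OE_CM, 73.8 ± 2.02 in TGF_KD_CM, 82.5 ± 4.65 in TGF_VEC_CM and 54.5 ± 1.85 in VEC_CM (SD, n = 3 each). Troponin I genes, nearly all Tnni2, averaged 10.0 ± 0.805 FPKM in OE_CM, 10.4 ± 0.976 in TGF_KD_CM, 10.5 ± 0.735 in TGF_VEC_CM and 10.4 ± 1.02 in VEC_CM. These 4 values lie within their SDs of each other. Troponin C genes averaged 1.17 ± 0.378 FPKM in OE_CM, 2.91 ± 0.512 in TGF_KD_CM, 3.70 ± 0.518 in TGF_VEC_CM and 1.41 ± 0.251 in VEC_CM. The FPKM of Tnnt2 was 10.9 ± 0.671 times that of all troponin I genes in OE_CM and 4.91 ± 0.655 times in VEC_CM. Across the 12 libraries, which share group means, log2 CPM of the other members correlated with that of Tnnt2 at r between -0.41 (Tnnc1) and 0.20 (Tnni1).

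The troponin I and T genes lie in pairs on GRCm38, which allows each gene to be set beside its neighbour. Tnni1 (chr1:135783033-135810989) and Tnnt2 (chr1:135836315-135852268) lie 25.3 kb apart on the same strand, with Lad1 between them. Tnni2 (chr7:142441816-142444410) and Tnnt3 (chr7:142498771-142516213) lie 54.4 kb apart, and Tnnt1 (chr7:4504569-4515975) and Tnni3 (chr7:4518305-4522718) lie 2.3 kb apart. Tnnc1 (chr14:31208312-31211729) and Tnnc2 (chr2:164777161-164779734) have no troponin neighbour. Log2 differences of Tnnt2 and Tnni1 had the same sign in the 3 comparisons but unlike sizes: 1.18 for Tnnt2 and 0.80 for Tnni1 with overexpression, -0.14 and -1.92 with inhibition, and 0.60 and 3.56 with TGF-beta1. The 0.80 of Tnni1 did not pass the test, and its interval includes 0. Tnni2 and Tnnt3 had unlike levels too, and neither passed the test in any comparison. Tnnt1 was counted in every library, at 150 to 250 counts, while Tnni3 beside it had at most 1.

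The surroundings of Tnnt2 were read from its neighbours. The nearest 5 protein-coding genes on each side were taken, and of the 9 that are no troponins 5 were tested. With overexpression 2 of them rose and 2 fell, with inhibition 1 fell, and with TGF-beta1 4 rose and 1 fell, beside 54%, 43.3% and 58.3% of all genes called in those comparisons. Phlda3, which encodes a p53-induced inhibitor of AKT, had 92.5 ± 1.83 CPM in OE_CM and 62.3 ± 1.32 CPM in VEC_CM (SD, n = 3 each), a log2 rise of 0.57 ± 0.041 (SE, edgeR adjusted p = 1.06e-19). It was lower in TGF_KD_CM than in TGF_VEC_CM (-0.12, edgeR adjusted p = 0.0128) and higher in TGF_VEC_CM than in VEC_CM (0.30, edgeR adjusted p = 2.72e-09). Nav1, a microtubule-associated neuron navigator, rose with overexpression by 0.53 and with TGF-beta1 by 0.14, and differed by -0.02 with inhibition (edgeR adjusted p = 0.533). Csrp1, a LIM protein of smooth muscle, fell with overexpression by 0.36 (edgeR adjusted p = 3.33e-12) and with TGF-beta1 by 0.15 (0.000784). Tmem9 fell with overexpression by 0.15 and rose with TGF-beta1 by 0.42, and Kif21b, a kinesin, rose with TGF-beta1 by 0.43. The genes directly at the sides of Tnnt2, Lad1 and Pkp1, had at most 21 and 5 counts in any library, and Igfn1 and Cacna1s were also too low to be tested.

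**Figure D3:**
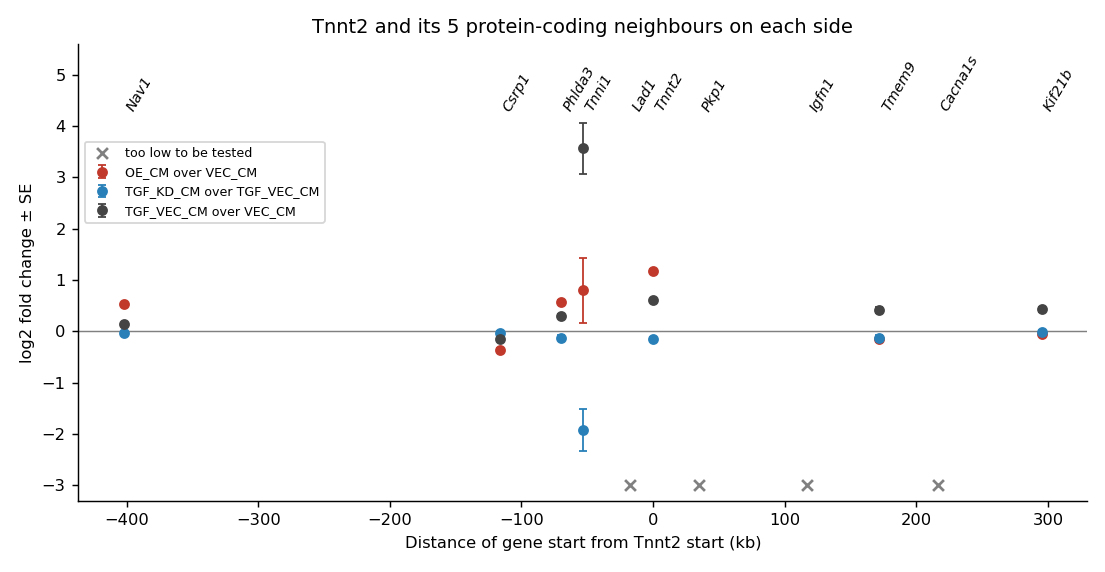
Log2 fold change (points) with SE (bars) of Tnnt2, Tnni1 and the other protein-coding neighbours of Tnnt2 against the distance of their start from that of Tnnt2 in kb; colours as in the legend, crosses for genes too low to be tested. Tnni1 changes most in the TGF-beta1 comparisons (3.56 and -1.92), and Tnnt2 at 1.18 is the highest of the overexpression values drawn.

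The Tnnc2 counts carry a limit of their own. In the GENCODE M21 annotation of GRCm38, 592 of its 800 exonic bases (74%) are shared with Ube2c, a ubiquitin-conjugating enzyme of mitosis encoded on the opposite strand, whereas the RefSeq model of Ube2c ends before Tnnc2. The strand setting of the counting is not given in the sources used here, so reads of the shared bases may belong to either gene. Ube2c averaged 149 ± 1.85 CPM in TGF_VEC_CM and 168 ± 1.72 CPM in VEC_CM (SD, n = 3 each), a log2 difference of -0.17 (edgeR adjusted p = 7.8e-07), opposite in sign to the 1.57 of Tnnc2. It rose by 0.14 with overexpression, a call lost with upper-quartile factors. In that comparison Tnnc2 differed by -0.02 with TMM factors. No exonic overlap was annotated for Tnnt1, Tnnt2, Tnni1 or Tnni2.

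The genes whose pattern was most like that of Tnnt2 were no troponins. Over the 12 libraries and among 11993 genes averaging at least 1 CPM, log2 CPM correlated best for Timp1 (r = 0.993), an inhibitor of matrix metalloproteinases, and for Runx1 (r = 0.989), a transcription factor. Ldlrad4, an inhibitor of TGF-beta signalling, followed at r = 0.988, Myo1e, an unconventional myosin, at 0.987, and Hmgcll1, a lyase of ketone body synthesis, at 0.986. In all, 108 genes correlated with Tnnt2 at r above 0.95. These values describe 12 points that share 4 group means. Timp1 averaged 158 ± 4.39 CPM in OE_CM, 92.8 ± 1.73 in TGF_KD_CM, 102 ± 1.37 in TGF_VEC_CM and 67.4 ± 1.01 in VEC_CM (SD, n = 3 each), close in CPM to Tnnt2 in each group. In FPKM it lay above Tnnt2 in each group, with 169 against 108.7 in OE_CM and 76.0 against 50.7 in VEC_CM. Runx1 averaged 61.2 ± 2.59 CPM in OE_CM, 34.6 ± 0.204 in TGF_KD_CM, 35.5 ± 1.50 in TGF_VEC_CM and 24.0 ± 0.884 in VEC_CM. For Tnni2, the member of next highest FPKM, no gene reached r above 0.95, and the best was Gm14305 at 0.813.

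**Figure D4:**
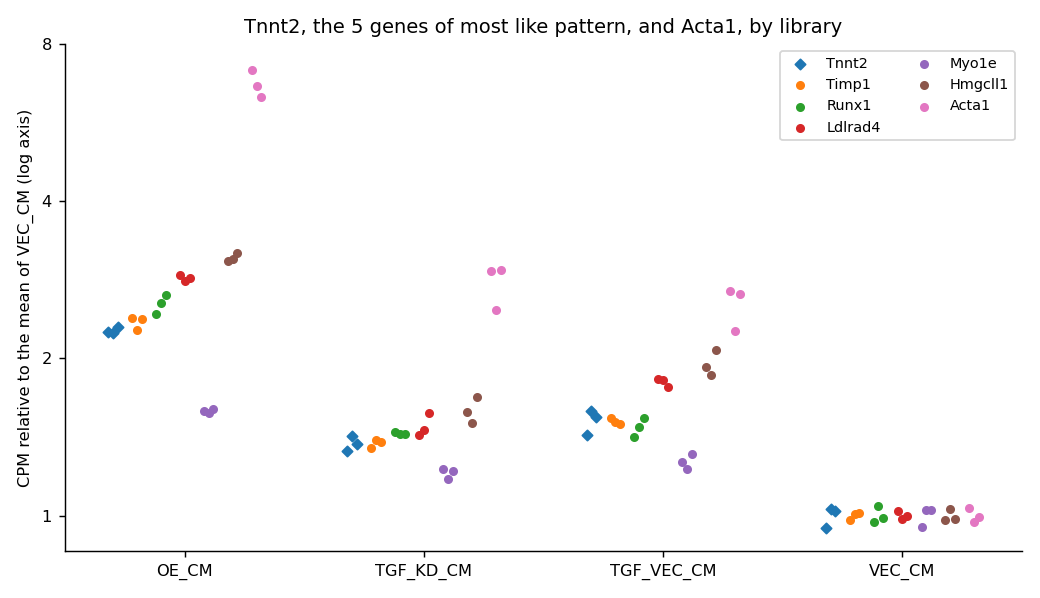
CPM of Tnnt2 (diamonds), of the 5 genes most like it and of Acta1 (circles) in each library, relative to the mean of VEC_CM, on a log axis. The order of groups is the same for Tnnt2 and for the 5 like genes, with OE_CM highest, then TGF_VEC_CM, TGF_KD_CM and VEC_CM by group mean. Acta1 lies near its TGF_VEC_CM level in TGF_KD_CM and rises most in OE_CM.

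The rest of the thin filament was read from a list of 15 genes for actins, tropomyosins, nebulins and capping proteins, of which 14 were in the table and 10 were tested. With overexpression 4 rose and 2 fell, where 28.4% of all genes rose and 25.7% fell. The median log2 difference was -0.10, beside -0.01 over all genes. Acta1, the skeletal alpha-actin, had 40.8, 37.9 and 36.2 CPM in OE_CM, against 5.91, 5.54 and 5.66 CPM in VEC_CM. All OE_CM libraries were several times higher, with a log2 rise of 2.75 ± 0.084 (SE, edgeR adjusted p = 9.01e-39), larger than that of Tnnt2. Actc1, the actin that cardiomyocytes pair with Tnnt2, had at most 1 count in any library. The tropomyosins, the proteins that troponin T binds, changed little: Tpm1 rose by 0.23, Tpm3 by 0.26 and Tpm4 by 0.20, and Tpm2 fell by 0.29 (edgeR adjusted p of at most 6.9e-10 for each). Tmod3, a capping protein, fell by 0.12.

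With inhibition 2 genes of the list rose and 4 fell, where 23% of all genes rose and 20.2% fell, with a median of -0.01, beside 0.00 over all genes. Tpm1 (0.08) and Tpm4 (0.08) were the ones that rose, and neither call held with upper-quartile factors or library totals. Tpm2 fell by 0.17 (edgeR adjusted p = 5.77e-05) and Tpm3 by 0.06 (0.04). The other falls were those of Neb and Tmod1, which are described below without a test. Acta1 had 16.8, 14.1 and 16.8 CPM in TGF_KD_CM, against 15.4, 12.8 and 15.1 CPM in TGF_VEC_CM, and did not pass (log2 0.14, edgeR adjusted p = 0.148). With TGF-beta1 5 rose and 2 fell, where 28.9% of all genes rose and 29.4% fell, with a median of 0.18, beside 0.00 over all genes. The 5 include Tmod1 and Neb, and the filter on low counts kept Neb through the TGF-beta1 groups alone, where it was high. The number that rose is therefore a description and no test of the list. Under DESeq2 size factors, upper-quartile factors or library totals, 5 rose and 1 fell. Acta1 rose by 1.34 ± 0.09 (SE, edgeR adjusted p = 8.2e-21), Tpm2 by 0.39 (6.96e-15) and Tpm1 by 0.18 (2.71e-08), while Tmod3 fell by 0.36 (3.71e-17).

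Neb and Tmod1, which encode nebulin and an erythrocyte and muscle tropomodulin, averaged less than 1 CPM and are named after their values were seen, because they moved as Tnni1 did, so they are given without a test. Neb had 14, 12 and 20 counts in TGF_KD_CM, 46, 48 and 27 counts in TGF_VEC_CM, and 2, 3 and 3 counts in VEC_CM. Its log2 difference was -1.41 ± 0.40 with inhibition and 3.86 ± 0.53 with TGF-beta1 (SE, edgeR), and it passed the filter on low counts through the TGF-beta1 groups alone. Tmod1 had 13, 16 and 9 counts in TGF_KD_CM, 67, 38 and 63 counts in TGF_VEC_CM, and 8, 12 and 15 counts in VEC_CM. Its log2 difference was -2.16 ± 0.41 with inhibition and 2.26 ± 0.41 with TGF-beta1 (SE, edgeR). In OE_CM, Neb had 3, 1 and 1 counts and Tmod1 had 9, 6 and 1 counts.

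Few genes of the thick filament were expressed enough to be tested. Of 19 on the list 13 were in the table and 3 were tested, and with overexpression these 3 had a median log2 difference of -0.12, none being called. Mylpf, the fast skeletal regulatory light chain, was the one that rose with TGF-beta1 (log2 0.77, edgeR adjusted p = 0.00237). Of 15 tested genes of the Z-disc, M-band and titin, 3 rose and 7 fell with overexpression, with a median of -0.36, where 28.4% of all genes rose and 25.7% fell. The 3 that rose, named after their values were seen, were Nexn, an actin-binding protein (0.26), Xirp1 (2.24) and Myom2 (1.85), the last 2 above the 1.18 of Tnnt2 but below 1 CPM on average. Among those that fell were Actn3, a Z-disc actinin of fast muscle (-1.15), Ankrd1 (-0.95) and Ldb3 (-0.86). Actn3 also fell with inhibition, by 0.59, and rose with TGF-beta1, by 0.52. Among 7 tested genes of cardiomyocyte calcium handling and hormones, 1 rose and 4 fell with overexpression, beside the same shares of all genes. With TGF-beta1 3 rose and 1 fell, where 28.9% of all genes rose and 29.4% fell. Atp2a2, the most abundant gene of this list at 511 CPM on average, had 95.4 ± 1.03 FPKM in OE_CM. In VEC_CM it had 87.1 ± 1.06 FPKM (SD, n = 3 each). Casq2, the cardiac calsequestrin, had 0.802 ± 0.415 CPM in OE_CM and 3.55 ± 0.448 CPM in VEC_CM (SD, n = 3 each), a log2 fall of 2.13 (edgeR adjusted p = 5.93e-12).

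**Figure D5:**
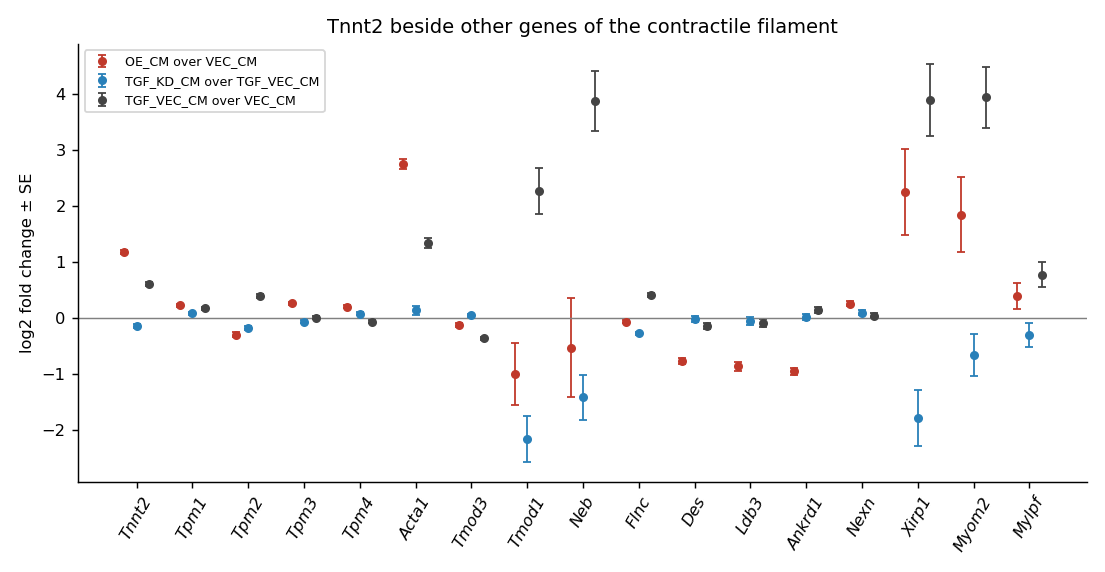
Log2 fold changes (points) with SE (bars) of Tnnt2 and 16 other contractile genes in 3 comparisons, coloured as in the legend. With overexpression Acta1 (2.75) lies above Tnnt2 (1.18) and the 4 tropomyosins lie between -0.29 and 0.26. Tmod1, Neb, Xirp1 and Myom2, all below 1 CPM on average, lie highest with TGF-beta1.

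Smooth muscle and myofibroblast contractile genes gave 7 higher and 3 lower of 14 tested with overexpression, with a median of 0.17, where 28.4% of all genes rose and 25.7% fell. Pdlim7, a LIM protein of actin filaments, rose by 1.00 ± 0.037 (SE, edgeR adjusted p = 6.56e-34) and Cald1, caldesmon, by 0.62, while Mylk fell by 0.98 and Cnn2 by 0.67. With inhibition 2 rose and 6 fell, beside 23% and 20.2% of all genes, and with TGF-beta1 7 rose and 3 fell, beside 28.9% and 29.4%. Acta2, the alpha smooth muscle actin used to mark myofibroblasts, averaged 0.44 CPM over the 12 libraries, Tagln 0.20 CPM and Cnn1 0.03 CPM. By group, Acta2 averaged 0.497 CPM in OE_CM, 0.315 in TGF_KD_CM, 0.376 in TGF_VEC_CM and 0.591 in VEC_CM, on 7 to 27 counts per library. Its means were thus not higher in the TGF-beta1 groups. Tagln averaged 0.219 CPM in TGF_VEC_CM and 0.164 CPM in VEC_CM, and Cnn1 had at most 4 counts in any library. The sum of the 10 smooth muscle and pericyte markers moved in the same group order as Tnnt2, and its part in the Tnnt2 values was not tested. It was 897 to 903 CPM in OE_CM, 636 to 649.8 CPM in TGF_KD_CM, 820.1 to 845 CPM in TGF_VEC_CM and 598 to 618 CPM in VEC_CM. Most of it was Cspg4, a proteoglycan, at 711 CPM on average. Adipocyte markers, mostly Lpl, Fabp4 and Pparg, had the opposite order, also not tested: 519.5 to 533 CPM summed in OE_CM, 834 to 857 CPM in TGF_KD_CM, 696 to 727 CPM in TGF_VEC_CM and 1049.9 to 1102 CPM in VEC_CM. Of the 10 smooth muscle and pericyte markers 8 averaged less than 1 CPM, among them Acta2, Tagln, Cnn1 and Myh11.

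Several cardiac transcription factors act on troponin promoters in muscle. Of 28 on the list 21 were in the table and 12 were tested, and with overexpression 6 rose and 5 fell, where 28.4% of all genes rose and 25.7% fell. Tead1, a factor that binds M-CAT elements, fell by 0.30 (179.7 ± 1.36 CPM in OE_CM and 220.5 ± 7.65 CPM in VEC_CM, SD, n = 3 each, edgeR adjusted p = 2.05e-11). Tead3 fell by 0.39 (edgeR adjusted p = 6.2e-06), Tead2 rose by 0.11 (0.0234), a call that did not hold with upper-quartile factors, and Tead4 did not pass (0.02, its sign turning with the scaling). Gata4 fell by 0.47 (1.73 ± 0.255 CPM in OE_CM and 2.38 ± 0.455 CPM in VEC_CM, SD, n = 3 each, edgeR adjusted p = 0.049). Srf rose by 0.38, its cofactor Mrtfa by 0.49, Mef2a by 0.44 and Mef2d by 0.34, each with an edgeR adjusted p of at most 2.03e-12. With inhibition Mrtfa fell by 0.50, Srf by 0.29 and Tead1 by 0.25, while Mef2a (-0.04) and Gata4 (-0.01) did not pass. With TGF-beta1 Gata4 rose by 0.64, Mrtfa by 0.43, Mef2d by 0.34 and Srf by 0.30. Gata6, Tbx20 and Mef2c averaged 0.00474, 0.00226 and 0.0541 CPM, and Hand2 was not analysed here.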

How the data were processed

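Per the labels, polyadenylated RNA of 12 libraries was sequenced. The authors deposited raw read counts and FPKM for 24619 genes, in a table each. FPKM is the authors' unit of counts scaled by library and transcript length, and the deposited values follow from the deposited counts with one length per gene. Per the submitters' processing notes the genome was GRCm38/mm10. Which aligner, counter and strand setting were used is not given in the sources used here, and the strand setting bears on overlapping genes. Depth was 33379207 to 37226153 counts per library, and floors of 3 counts cover counting error only.

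Gene-wise tests on the counts used edgeR 4.0.16, run in R 4.3.3 (filterByExpr with a minimum count of 10, TMM, robust quasi-likelihood fit, 1 fit to the 4 groups of 3, two-sided). P-values were adjusted by Benjamini-Hochberg over the 14400 genes kept, with a threshold of 0.05. Each contrast had 3 libraries a side. Alternatives were DESeq2 size factors, upper-quartile factors, library totals, no filter, a filter of 1 CPM, DESeq2 1.42.0, limma 3.58.1 on log2(FPKM + 1) and log2(FPKM + 0.1), separate fits per pair of groups, a replicate block, and leaving out each library. The scripts were tested on simulated data.

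The members and lists were chosen with earlier results of these data known. All 8 members are named. From each list and comparison, at most the 4 called genes of largest log2 difference that averaged at least 1 CPM are named, and actins, tropomyosins and TEAD, GATA, MEF2, SRF, TBX and HAND factors for their roles. The nearest 5 coding genes on each side are the neighbours. Like genes are the 5 with the highest correlation of log2 CPM among genes averaging at least 1 CPM. Scaling checks on list genes and neighbours were added after the data were seen.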

Additional observations from a re-analysis of the deposited data

How the results depend on the processing

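The log2 difference of Tnnt2 for OE_CM over VEC_CM, 1.18 with TMM factors, was 1.09 with upper-quartile factors, 1.10 with library totals, 1.09 with limma on log2(FPKM + 1) and 1.10 on log2(FPKM + 0.1), shifts larger than its spread between libraries. The difference of its effects, 1.32, was 1.26 with upper-quartile factors and on log2(FPKM + 1). For OE_CM over VEC_CM all genes gave 4083 higher and 3695 lower calls with TMM, 2798 and 5059 with upper-quartile factors, 2936 and 4840 with library totals, and 2778 and 4477 on log2(FPKM + 1). The count of members other than Tnnt2 called for TGF_KD_CM over TGF_VEC_CM ran from 1 to 2 when 1 library was left out. Uncalled values that turned sign were those of Tnni2 for OE_CM over VEC_CM (-0.0671 with upper-quartile factors, -0.0564 with library totals, -0.0489 and -0.0531 on the limma scales, and -0.0396 to 0.0911 with 1 library left out), of Tnnc2 for the same comparison (-0.45 to 0.19), and, for the difference of effects, of Tnnc2 (-0.00422 to 0.62), Tnni2 (-0.123 to 0.0234) and Tnnt3 (-0.31 to 0.16, and 0.0285 on log2(FPKM + 1)). The cause was not tested. Of the tested values recomputed, 488 kept their direction and side of the threshold, 19 turned sign, 4 lost their call and 1 gained one, and of untested levels and counts 6 and 4 moved. Libraries with the same replicate number did not deviate together (r from -0.0372 to 0.0436 over 18 pairs), and the replicate block changed no member's call, with 7894 genes called for OE_CM over VEC_CM, 6381 for TGF_KD_CM over TGF_VEC_CM, 8521 for TGF_VEC_CM over VEC_CM and 7678 for the difference of effects. A fit to the compared groups alone could not be made for that difference. Depth limits Tnni1, Tnnc1 and Tnni3 most.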

Other observations

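Tnni3k, which encodes a cardiac kinase that binds troponin I and is no troponin itself, was looked at after its values were seen, so no test is given. It had 5.92, 6.67 and 7.13 CPM in OE_CM, against 2.78, 2.98 and 3.04 CPM in VEC_CM, and the groups did not overlap. The log2 difference of 1.16 ± 0.14 (SE, edgeR), or 2.24-fold, is close to the 1.18 of Tnnt2. It averaged 5.19 ± 0.266 CPM in TGF_KD_CM and 4.81 ± 0.19 CPM in TGF_VEC_CM (SD, n = 3 each), a log2 difference of 0.11. With TGF-beta1 the difference was 0.71 ± 0.15 (SE, edgeR), beside 0.60 for Tnnt2. Its locus, chr3:154786291-155055407 on GRCm38, is on another chromosome than any troponin gene.

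Xirp1 and Myom2, which encode muscle proteins of cell junctions and of the M-band, averaged less than 1 CPM and were also singled out after their values were seen. They are given without a test. Xirp1 had 7, 8 and 8 counts in OE_CM, 4, 9 and 10 in TGF_KD_CM, 18, 47 and 14 in TGF_VEC_CM, and 1, 2 and 2 in VEC_CM, and only TGF_VEC_CM lay whole above the filter on low counts. Myom2 had 8, 9 and 7 counts in OE_CM, 29, 17 and 26 in TGF_KD_CM, 30, 38 and 44 in TGF_VEC_CM, and 1, 4 and 2 in VEC_CM. For both genes OE_CM lay above VEC_CM in every library.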
